A study of Mus musculus with 2 samples.

Results

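The cells described here were the Cxcl14-type fibro/adipogenic progenitors (FAPs) of mouse limb muscle in which at least 1 transcript of Wnt4, Pcsk2 or Rtl4 was counted. They numbered 405 of the 8481 cells measured. A cell was Cxcl14-type if it held 5 or more Cxcl14 UMIs (unique molecular identifiers, one per captured transcript) per 10000 of its UMIs and fewer than 25 per 10000 of Pi16, Sema3c, Anxa3 and Efemp1 summed, a sum called P below. A Cxcl14-type cell was a member if it also held 1 or more UMIs of Wnt4, Pcsk2 or Rtl4. The comparator was the 1184 Cxcl14-type cells with none of the 3. Members and comparator were thus chosen by the measured counts of these 8 genes, whose values are given as a description and support nothing.

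The study sorted FAPs as Lin-Vcam1-Sca1+ cells from limb muscles of 3-week-old C57BL/6 mice and asked how loss of Bap1, a deubiquitinase of histone H2A, changes them. One droplet library came from Bap1f/f mice, which carry the floxed allele without Cre, and 1 from Prx1-Cre;Bap1f/f mice, in which Cre is driven in limb mesenchyme and not in FAPs alone. They are called here the libraries labelled WT and ΔMPC. With 1 library per genotype there is no replicate, so no test was possible, genotype and library cannot be told apart, and every interval below is a 95% interval for counting error only.

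FAPs are the Pdgfra-expressing mesenchymal cells between muscle fibres, and they lay down matrix, can turn into adipocytes and support muscle stem cells and nerve endings. Wnt4 is a secreted Wnt ligand, Pcsk2 is a protease that cuts prohormones in dense-core vesicles, and Rtl4 is a gene derived from a retrotransposon Gag protein. Cxcl14 encodes a chemokine, and cells that express it are the more matrix-rich kind of FAP.

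Members were 43 of 4103 cells (1.05%, interval 0.759 to 1.41) in the library labelled WT and 362 of 4378 cells (8.27%, 7.47 to 9.12) in the one labelled ΔMPC. Of the Cxcl14-type cells they were 43 of 569 (7.56%, 5.52 to 10.0) and 362 of 1020 (35.5%, 32.6 to 38.5), so the intervals did not overlap. Depth was alike: the median member held 11078 UMIs in the library labelled WT and 11140 in the one labelled ΔMPC, against 11638 and 10638 in the comparator. With each cell thinned to 5000 UMIs, the shares with any of the 3 genes were 22 of 559 (3.94%, 2.48 to 5.90) and 222 of 977 (22.7%, 20.1 to 25.5). The thinning left out 10 and 43 shallower Cxcl14-type cells. The share with any of the 3 also differed between the libraries in the remaining cells. It was 3.05% labelled WT and 19.7% labelled ΔMPC in cells with P of 25 or more. In cells with P under 25 and Cxcl14 under 5 it was 4.11% and 21.5%. Thinned to 5000 UMIs, these shares were 1.18% and 11.4%, and 1.62% and 13.0%.

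**Figure D1:**
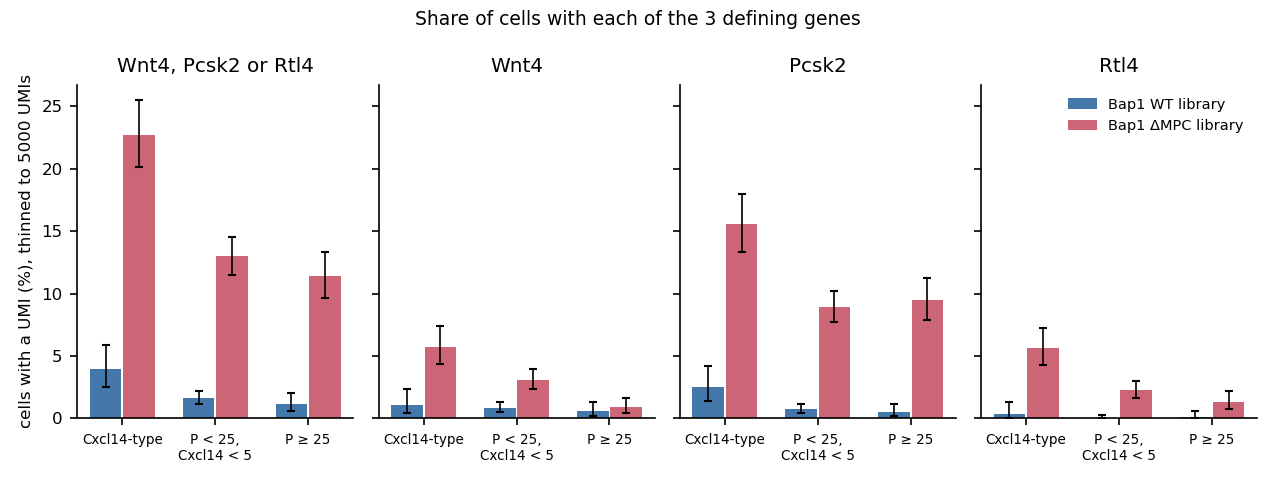
Share of cells, in percent, with a UMI of Wnt4, Pcsk2 or Rtl4 after thinning each cell to 5000 UMIs, for Cxcl14-type cells, cells of P under 25 and Cxcl14 under 5, and cells of P of 25 or more; bars are the libraries labelled WT (blue) and ΔMPC (red) and lines the exact 95% interval. In Cxcl14-type cells Pcsk2 was found in 2.50% and 15.6% of cells, Wnt4 in 1.07% and 5.73% and Rtl4 in 0.358% and 5.63%.

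Of the 362 members labelled ΔMPC, 268 held Pcsk2, 109 held Wnt4 and 90 held Rtl4. Pcsk2 was the only one of the 3 genes in 182 members, Wnt4 in 50 and Rtl4 in 35, while 10 members held all 3. Among members labelled WT, 26 held Pcsk2, 14 held Wnt4 and 3 held Rtl4, and none held more than 1 of them. Membership rested on 1 UMI in 37 of the 43 members labelled WT and in 167 of the 362 labelled ΔMPC. No member of the first held more than 2 UMIs of the 3 genes, whereas 76 of the second held 4 or more, up to 16. Near the limits, 20 members labelled ΔMPC had 5 to under 6 Cxcl14 UMIs per 10000, and 24 cells with a UMI of the 3 genes lay just outside at 4 to under 5. These numbers were 3 and 9 in the WT-labelled library.

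None of the 3 genes was confined to Cxcl14-type cells. Before thinning, Pcsk2 was found in 26.3% of Cxcl14-type cells labelled ΔMPC, in 16.3% of cells with P of 25 or more and in 15.4% of cells with P under 25 and Cxcl14 under 5, at median depths of 10713.5, 11661 and 10766 UMIs. Wnt4 was found in 10.7%, 2.48% and 6.17% of the same 3 groups, and Rtl4 in 8.82%, 2.32% and 3.56%. In cells labelled WT, Wnt4 was found in 2.46% of Cxcl14-type cells, against 1.90% and 2.42% in the other two groups, at median depths of 11606, 13635 and 11916.5 UMIs. Its interval there, 1.35 to 4.09, holds both other shares. No cell type without Wnt4 was measured, so free RNA and low expression in these 14 cells were not told apart. Pcsk2 stood at 4.57% there, against 0.857% and 1.53%.

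Members of both libraries expressed the FAP markers. The receptor gene Pdgfra stood at 461 CPM (UMIs of the summed cells of a group, scaled to a total of 1000000) in members of each library. Ly6a, the gene of the Sca1 antigen used in the sort, stood at 841 CPM in members labelled WT and 1340 in members labelled ΔMPC. Of the other Cxcl14-type markers, Smoc2 stood at 3157 and 1274 CPM and Col15a1, a basement membrane collagen, at 2205 and 2588. The immune marker Ptprc and the muscle stem cell markers Pax7, Myf5 and Myod1 had no UMI in members. A list of 10 muscle stem cell and myofibre markers summed to 295 CPM in members labelled WT, 148 in their comparator, and 64.6 and 92.1 in the library labelled ΔMPC, and its part in the results was not tested. Immune, endothelial, Schwann, mural and perineurial lists summed to between 5.91 and 557 CPM in members, and to between 7.26 and 514 in the comparators. Bap1 stood at 11.8 CPM (6 UMIs) and 22.1 CPM (92 UMIs) in members and at 17.9 and 23.4 in the comparators, so the library labelled ΔMPC did not show fewer Bap1 UMIs. The kit reads the 3′ end of a transcript, which can lie outside the deleted exons, so these counts are no check of the deletion. Across the series 5 cells, 1 of them a member, shared a barcode sequence with a cell of the other library.

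Members labelled ΔMPC were not scattered evenly among the other Cxcl14-type cells. Over 8 principal components of 5000 variable genes, with the 8 choosing genes left out, members made up 52.2% of the 20 nearest Cxcl14-type neighbours of a member labelled ΔMPC and 27.3% of those of a comparator cell, where members were 35.5% of all. Around members with 4 or more UMIs of the 3 genes the share was 70.0%, and around members with 1 UMI it was 42.1%. Shares in the library labelled WT were 10.1% around members and 6.96% around comparator cells, where members were 7.56% of all. They were 8.23% and 7.13% with 50 neighbours and 11.4% and 7.15% with 10. The share around members was the higher in every setting tried. With 43 members, 37 of them on 1 UMI, no pattern is read there.

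The genes higher in members labelled ΔMPC included the collagen IV chains found in specialised basement membranes. A gene entered a comparison if 20 UMIs were expected in the smaller group at equal levels, and it is called higher or lower past 2-fold by size alone. Of 9800 genes in the library labelled ΔMPC, 104 were higher in members than in the comparator (1.06%) and 228 were lower (2.33%). The basement membrane list, made of 21 genes for collagen IV, laminins, nidogens, perlecan, agrin and others, had 16 genes measured, of which 4 were higher and none was lower. Its median log2 ratio was 0.70, against -0.00016 over all 9800 genes, and 14 of the 16 lay above 0.

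Col4a3 stood at 42.2 CPM (176 UMIs, interval 36.2 to 49.0) in members labelled ΔMPC and at 6.06 (43 UMIs, 4.39 to 8.17) in their comparator, a log2 ratio of 2.80 (2.31 to 3.32). Col4a4 stood at 49.0 CPM (42.5 to 56.2) and 11.6 (9.19 to 14.4), a log2 ratio of 2.08. Col4a5 stood at 71.3 CPM (63.4 to 79.9) and 22.3 (18.9 to 26.0), a log2 ratio of 1.68. These 3 genes encode the chains of the collagen IV network known from the glomerular basement membrane of the kidney. In cells labelled WT, Col4a3 stood at 27.6 CPM (15.1 to 46.2) in members and 27.1 (23.2 to 31.5) in the comparator, Col4a4 at 57.1 (38.2 to 82.0) and 43.6 (38.5 to 49.1), and Col4a5 at 114 (86.7 to 148) and 82.3 (75.3 to 89.8). The comparator cells labelled ΔMPC were thus the low group for all 3 chains. The intervals of the other 3 groups overlapped for Col4a4, while for Col4a3 members labelled ΔMPC lay above the comparator labelled WT and for Col4a5 they lay under members labelled WT. Between the libraries, labelled ΔMPC over WT, the log2 ratio in comparator cells was -2.16 for Col4a3, -1.91 for Col4a4 and -1.89 for Col4a5, and in members it was 0.62, -0.22 and -0.68. The difference between those pairs of ratios was not tested.

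Col4a3 and Col4a4 are neighbours on chromosome 1 that are read in opposite directions. In the mm10 build, to which the authors aligned, Col4a3 spans chr1:82586921-82722059 on the plus strand and Col4a4 spans chr1:82448423-82586849 on the minus strand, and 72 bases lie between their annotated starts. The 300-base RefSeq promoter window of Col4a4, chr1:82586800-82587099 on the GRCm38.p6 build, minus strand, holds both starts and is shown because both genes were higher in members labelled ΔMPC. The window of Col4a5, chrX:141475169-141475468, plus strand, is shown beside it, and capitals mark matches to GGGCGG or to CCAAT on either strand.
Col4a4 and Col4a3 start: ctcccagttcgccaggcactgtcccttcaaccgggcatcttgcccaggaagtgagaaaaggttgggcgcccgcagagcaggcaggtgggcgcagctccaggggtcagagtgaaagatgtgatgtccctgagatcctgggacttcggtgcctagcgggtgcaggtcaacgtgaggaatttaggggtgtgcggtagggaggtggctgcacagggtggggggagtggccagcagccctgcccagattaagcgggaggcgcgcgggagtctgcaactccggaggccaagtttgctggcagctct
Col4a5 start: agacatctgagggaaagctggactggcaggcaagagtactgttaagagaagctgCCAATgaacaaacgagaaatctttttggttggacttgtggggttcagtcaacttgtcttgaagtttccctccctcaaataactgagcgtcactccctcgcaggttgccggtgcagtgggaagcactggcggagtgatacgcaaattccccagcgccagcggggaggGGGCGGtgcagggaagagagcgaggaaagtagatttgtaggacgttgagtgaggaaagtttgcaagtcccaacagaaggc
The Col4a4 window was 63.3% G or C and held no match to GGGCGG, to CCAAT or to TATAAA, and the Col4a5 window was 52.7% G or C and held 1 GGGCGG and 1 CCAAT. Of 32851 RefSeq promoter windows of this length, 35.7% held GGGCGG, 37.4% held CCAAT and 13.6% held TATAAA on either strand. Col4a6, which starts 1309 bases from Col4a5 on the opposite strand, had 9 UMIs in members and 1 in the comparator labelled ΔMPC and was too low to be compared.

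Smoc2, a secreted calcium-binding matrix protein and a Cxcl14-type marker, was the most abundant gene called higher. It stood at 1274 CPM in members labelled ΔMPC and at 587 in their comparator, a log2 ratio of 1.12 (1.06 to 1.18). In cells labelled WT it stood at 3157 and 2703 CPM, a log2 ratio of 0.22 (0.15 to 0.30). Both groups labelled ΔMPC lay under both groups labelled WT for this gene, unlike for Col4a3. The broadly used basement membrane genes leaned the same way without reaching 2-fold: log2 ratios in the library labelled ΔMPC were 0.85 for Hspg2 (perlecan), 0.81 for Lamc1 and Lamb1 (laminin chains), 0.70 for Col15a1 and Nid2, 0.59 for Nid1 and 0.35 for Col4a1. Agrn (-0.39) and Lama4 (-0.09) lay below 0. All 14 basement membrane genes measured in the library labelled WT lay above 0, with a median log2 ratio of 0.32 against 0.02 over all genes, and none was called. Interstitial matrix genes did not follow. On a separate list of collagens, none of 20 measured was called higher and Col8a1 and Col8a2 were lower, with a median of -0.22. That list left out Col17a1, which was higher (log2 ratio 2.06). In the library labelled WT, none of 15 genes of the list was called and the median was 0.07.

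**Figure D2:**
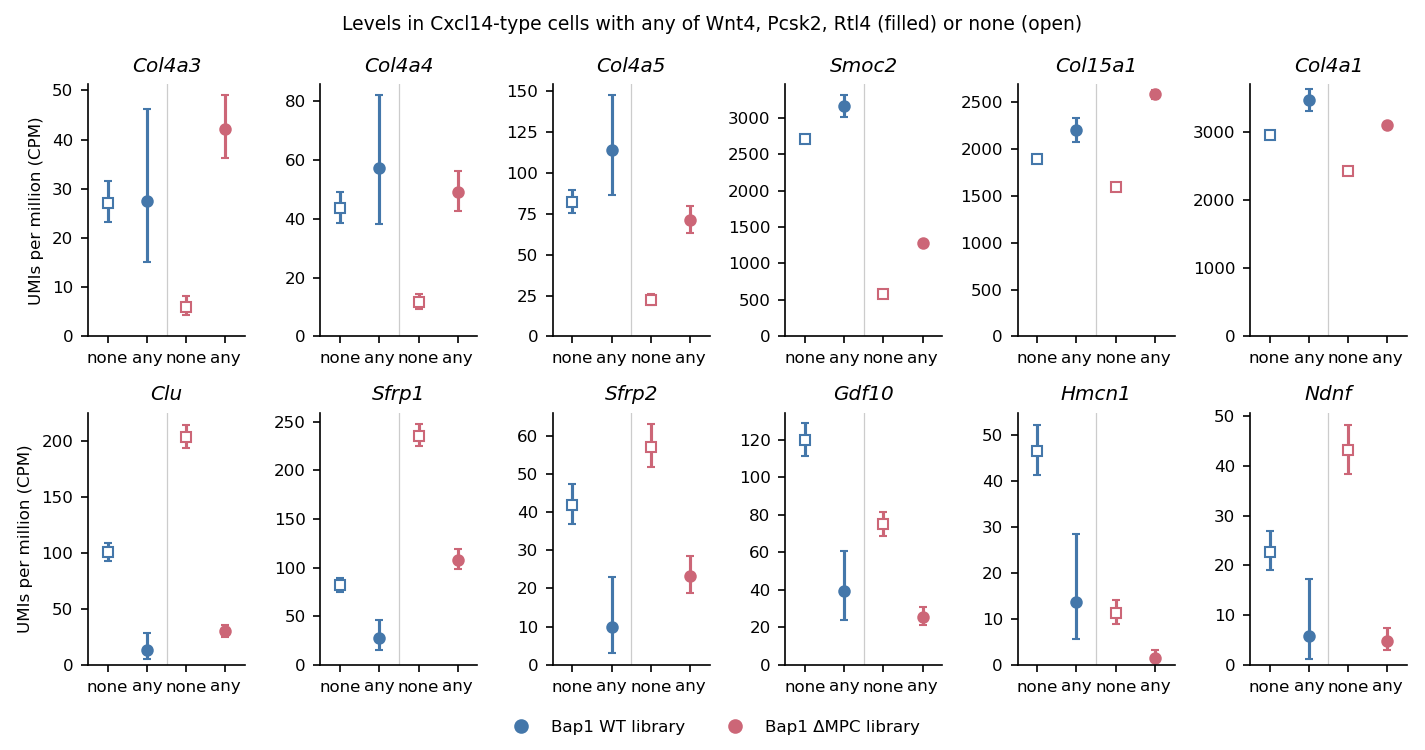
Level (CPM) of 12 genes in Cxcl14-type cells with none of Wnt4, Pcsk2 and Rtl4 (open squares) or with any of them (filled circles), in the libraries labelled WT (blue) and ΔMPC (red); lines are exact Poisson 95% intervals and each vertical axis starts at 0. Col4a3, Col4a4 and Col4a5 were lowest in the open red group, and Clu, Sfrp1, Sfrp2, Gdf10, Hmcn1 and Ndnf were lower in the filled than in the open group of each library.

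Several genes of ligands and receptors were also higher in members labelled ΔMPC. Among neurotrophic and axon guidance genes, 4 of 28 measured were higher (Gfra1, Ntrk3, Ret and Ntn4) and 4 were lower (Sema3f, Nrp2, Slit2 and Epha7), with a median log2 ratio of -0.19. Ret, the receptor tyrosine kinase of the GDNF family of ligands, stood at 193 CPM in members and 71.3 in the comparator, a log2 ratio of 1.44 (1.27 to 1.60). Gfra1, the co-receptor that presents GDNF to Ret, stood at 135 and 57.9 CPM, a log2 ratio of 1.22 (1.03 to 1.41). Ratios in cells labelled WT were 0.32 (0.02 to 0.62) for Ret and 0.39 (-0.18 to 0.91) for Gfra1, under the 2-fold limit. Nppc, the precursor of C-type natriuretic peptide, stood at 66.2 and 20.0 CPM in the library labelled ΔMPC (log2 ratio 1.73), and it was the only one of 12 neuropeptide and hormone genes measured that was higher. Tek, the angiopoietin receptor, had a log2 ratio of 1.72, Pgf, a growth factor of the VEGF family, 1.72, and Plau, the urokinase plasminogen activator, 1.83. These 3, with Ret and Gfra1, were singled out after their values were seen.

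The highest ratio was that of Adap2, a GTPase-activating protein of ARF proteins, with 62 UMIs in members and 9 in the comparator labelled ΔMPC (log2 ratio 3.55, 2.54 to 4.75). Next to Col4a3 stood Trpc5, a cation channel (2.79), followed by Tesc (2.35), Fam78a (2.28), the amino acid transporter gene Slc43a2 (2.15), the phospholipase gene Pla1a (2.14), Stmn4 (2.10), Col4a4 and Col17a1 (2.06), a transmembrane collagen. Trpc5 had no UMI in either group labelled WT. Pla1a was the most abundant of them, at 103 CPM in members against 23.3 in the comparator, and in the library labelled WT it stood at 33.5 (17 UMIs) and 20.5.

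Sfrp1 and Sfrp2, which encode secreted inhibitors of Wnt signalling, were lower in members of both libraries. Of 6 such inhibitor genes measured in the library labelled ΔMPC, 3 were lower (Sfrp1, Sfrp2 and Dkk3) with a list median of -1.05, and of 5 measured in the library labelled WT, 3 were lower (Sfrp1, Sfrp2 and Sfrp4) with a median of -1.01. In that library 33 of 3681 genes were lower in members (0.896%) and 3 were higher (0.0815%). Sfrp1 stood at 108 CPM in members and 236 in the comparator labelled ΔMPC, and at 27.6 (14 UMIs) and 82.0 in the library labelled WT. Sfrp2, with 39.2% of the ΔMPC members' UMIs in 1 cell, stood at 23.3 and 57.1 CPM, and at 9.84 (5 UMIs) and 41.8. The calls were not kept under every alternative. The log2 ratio of Sfrp1 labelled WT was -0.69 with Cxcl14 at least 3, and that of Sfrp2 labelled ΔMPC was -0.82 by the mean over cells. The ratio of Sfrp4 labelled WT, -1.01, was also the list median there. It was -0.85 without the comparator cell of most UMIs. Dkk2 was also under its comparator labelled ΔMPC (log2 ratio -0.97, not past 2-fold), and its ratio in the other library was 0.06. Among the Wnt/beta-catenin target genes, 4 of 9 were lower in members labelled ΔMPC (Nkd2, Ccnd1, Cd44 and Wisp2) and none was higher, with a median of -0.64. Labelled WT, none of 4 was called and the median was 0.13. Of those, Ccnd1, a cyclin, had a log2 ratio of -1.19 there but 1.28 in the library labelled WT, with 41 and 206 UMIs, too few overall for a comparison. No Wnt receptor gene of 14 measured was called. Of 5 Wnt ligand genes beside Wnt4, Wnt2 and Wnt5b were lower, Wnt2 with 30% of its comparator UMIs in 1 cell and a ratio of -0.78 without it.

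Sfrp1 and Sfrp2 were among 14 genes that were lower past 2-fold in members of both libraries, of 3679 genes measured in both (0.381%). No gene was higher in both, and none was called in opposite directions. With membership by Pcsk2 alone, 4 genes were higher in both (Prss23, Pdlim4, Vtn and Enpp2) and 16 were lower, 9 of them among the 14. Over the alternatives run, the ratios of Clu and Mmp3 stayed past 2-fold in both libraries, while each of the other 12 came within 2-fold in at least 1 library under at least 1 alternative. Clu with Cxcl14 at least 10, and Clu and Mmp3 with membership by Wnt4 alone, had too few expected UMIs to be called in both. Clu, a secreted chaperone also called clusterin, had the lowest ratio of the 14 in the library labelled WT, with 30.2 CPM in members and 204 in the comparator labelled ΔMPC (log2 ratio -2.75, -3.03 to -2.49) and 13.8 (7 UMIs) and 101 CPM in the library labelled WT (-2.87, -4.19 to -1.82). Hmcn1, an extracellular matrix protein, had log2 ratios of -2.97 and -1.75, on only 6 and 7 UMIs in members. Gdf10, a BMP-family ligand, had -1.55 and -1.61, the matrix metalloprotease gene Mmp3 -1.35 and -1.93, S100a4 -1.19 and -1.89, and 1500015O10Rik, the gene of the peptide augurin, -1.43 and -2.08. The others with their ratios were Ptx3 (-1.19 and -1.20), a pentraxin, the carboxypeptidase genes Cpe (-1.21 and -1.49) and Cpz, the cadherin gene Cdh11 (-1.69 and -1.20), the transcription factor gene Meox1 (-1.27 and -1.31) and the cytokine gene Il6 (-1.05 and -1.03). For most of the 14 genes, the Cxcl14 limit weakened the ratio labelled WT most. With Cxcl14 at least 3 per 10000 the ratio was 0.37 for Il6, -0.50 for Hmcn1 and -0.58 for Cpz. It was -0.69 for Sfrp1 and -0.81 for Gdf10. Cpe came within 2-fold there too, and its ratio was -0.85 with membership by Wnt4 alone. With Cxcl14 at least 10 the ratio was -0.21 for Meox1 and -0.43 for Cdh11. With membership by Pcsk2 alone it was -0.44 for Ptx3. Of the 7 Clu UMIs in members labelled WT, 42.9% were in 1 cell.

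**Figure D3:**
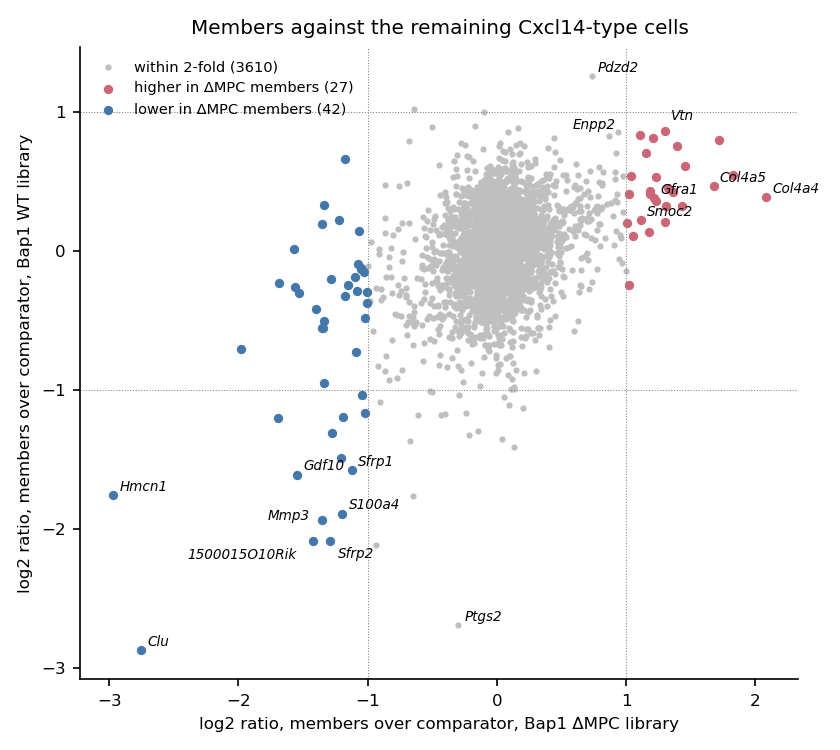
Log2 ratio of members over comparator cells for the 3679 genes measured in both libraries, with the library labelled ΔMPC on the horizontal and the one labelled WT on the vertical axis; dotted lines mark 2-fold, and colours mark the 27 genes higher and 42 genes lower past 2-fold in the library labelled ΔMPC. The 27 sit above 0 on the vertical axis with 1 exception, and the genes below both dotted lines include Clu, Hmcn1, Gdf10, Sfrp1 and Sfrp2.

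The sign of a difference was mostly shared where it could be read. Of the 104 genes higher in members labelled ΔMPC, 27 were abundant enough to be measured in both libraries, and 26 of them (96.3%) had a ratio above 0 in the library labelled WT, against 53.4% of all 3679 genes. Their median log2 ratio there was 0.43, and none passed 2-fold. Of the 228 lower genes 42 were measured in both, and 36 (85.7%) lay below 0, against 46.6% of all, with a median of -0.45. The other 77 and 186 genes had too few UMIs in the 43 members labelled WT. The 3 genes higher in that library were Pdzd2 (log2 ratio 1.26), Cxcl9, an interferon-induced chemokine (1.02), and Nrd1 (1.0), with ratios of 0.73, -0.64 and -0.10 in the library labelled ΔMPC. The call of Cxcl9 ended without the member of most UMIs (28.9% of 38, ratio 0.58) and with Cxcl14 at least 3 (0.21), and that of Nrd1 ended without its top member (0.93). Ptgs2, the inducible cyclooxygenase, was lower past 2-fold in members labelled WT (-2.69, 7 UMIs) and had a ratio of -0.30 in the other library, a difference that was not tested.

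Acute-phase genes were among the lowest in members labelled ΔMPC, and for several genes at this end 1 comparator cell held much of the count. Of 14 complement and acute-phase genes 6 were lower, C4b, Cfb, Saa3, Lcn2 and Hp among them, and none was higher, with a median of -0.66. Saa3, a serum amyloid A, had 2 UMIs in members and 392 in the comparator (log2 ratio -6.85, -9.90 to -4.98), and 54.8% of the 392 were in 1 cell. Hp, haptoglobin, had 33 and 399 UMIs (-2.83), with 42.6% of the comparator's and 81.8% of the members' UMIs in 1 cell each. Lcn2, lipocalin 2, was spread more widely, with 7.91% of its 809 comparator UMIs in the top cell (-3.03). The complement genes C4b and Cfb had ratios of -2.06 and -2.03. Igfbp2 (3 UMIs in members, ratio -3.58, -5.90 to -1.96) rested on 1 cell with 93.4% of its 61 comparator UMIs, and the ratio without that cell was 0.35, and 70.7% of the comparator's 58 Wfdc17 UMIs were also in 1 cell. Ndnf, a secreted neurotrophic factor, was spread over cells, with 4.80 CPM (20 UMIs) in members and 43.1 (306 UMIs) in the comparator, a log2 ratio of -3.17. Rgs16 (-2.97), the adhesion gene Chl1 (-2.89) and Srgn (-2.78) completed the 10 lowest, and Hmcn1 is given above. In the library labelled WT, 6 complement and acute-phase genes were measured. None of them was called, 5 lay above 0 and the median was 0.17.

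Cycling, adipocyte and tendon genes also included lower genes and no higher one. Of 16 cycling genes 5 were lower (Cdk1, Ube2c, Tpx2, Mcm5 and Rrm2), with a median of -0.74. Without the comparator cell of most UMIs the ratio went from -1.37 to -0.46 for Ube2c and from -1.05 to -0.72 for Tpx2, within 2-fold, and from -1.65 to -1.21 for Cdk1. Of 20 adipocyte genes Plin1, Fabp4 and Lepr were lower. Comp, a tendon and cartilage matrix protein, stood at 61.4 CPM in members and 177 in the comparator, a log2 ratio of -1.52, and Prg4, lubricin, at 8.16 and 26.4. Neither the 25 interferon-response genes nor the 6 other Gag-derived genes measured held a called gene, with medians of 0.05 and 0.07. Among the 10 prohormone-processing genes beside Pcsk2, Pcsk6 was higher (342 against 150 CPM, log2 ratio 1.19) and Scg3, Cpe and Cpz were lower, and Scg5, the gene of the chaperone that Pcsk2 needs for activity, had no UMI in any of the 4 groups.

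**Figure D4:**
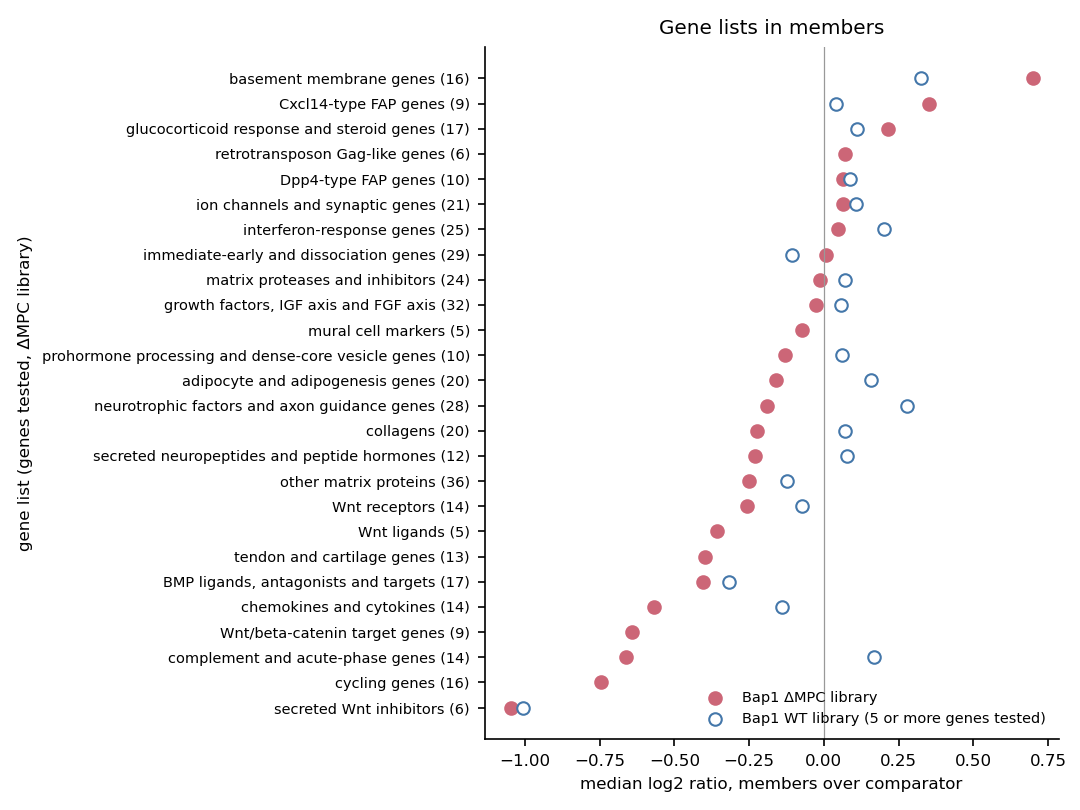
Median log2 ratio of members over comparator cells for the 26 gene lists with 5 or more genes measured in the library labelled ΔMPC (filled, number of genes in brackets) and, for 20 of them, in the library labelled WT (open). Basement membrane genes had the highest median in each library, 0.70 and 0.32, and secreted Wnt inhibitors had the lowest, -1.05 and -1.01.

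Levels followed the number of UMIs of Wnt4, Pcsk2 and Rtl4 in a cell. Among Cxcl14-type cells labelled ΔMPC, 658 had none, 167 had 1, 119 had 2 or 3 and 76 had 4 or more, with median depths between 10638 and 11521 UMIs. Col4a3 stood at 6.06, 18.2, 42.7 and 91.9 CPM over those 4 groups, Col4a4 at 11.6, 23.0, 52.0 and 98.6 and Col4a5 at 22.3, 26.7, 76.2 and 157. Smoc2 stood at 587, 923, 1301 and 1969 CPM, Gfra1 at 57.9, 109, 116 and 219 and Nppc at 20.0, 40.6, 57.7 and 133. In the other direction Clu stood at 204, 45.5, 26.4 and 4.48 CPM, Gdf10 at 75, 47.1, 9.97 and 5.6 and Emb, the adhesion protein embigin, at 263, 183, 49.9 and 16.8. Mgp, the matrix Gla protein, was within 2-fold over all members but stood at 1060, 973, 271 and 152 CPM. Of the 104 higher genes 59 (56.7%) were higher at every step, against 8.13% of all 9800 genes, and of the 228 lower genes 118 (51.8%) were lower at every step, against 8.73%. The genes were called from the same cells, so these counts describe the order within members and support nothing further.

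**Figure D5:**
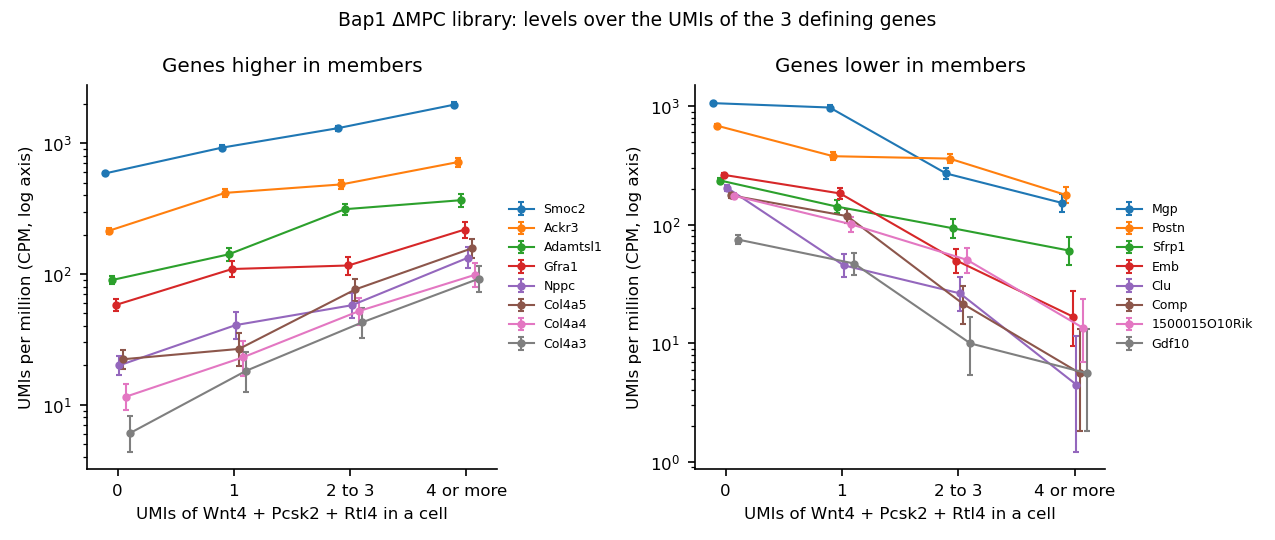
Level (CPM, log axis) of 8 genes higher and 8 genes lower in members, over Cxcl14-type cells labelled ΔMPC with 0, 1, 2 to 3, or 4 or more UMIs of Wnt4, Pcsk2 and Rtl4 summed; points are sums over cells and lines exact Poisson 95% intervals, and Mgp is shown among the lower genes although it was within 2-fold. Col4a3 went from 6.06 to 91.9 CPM and Clu from 204 to 4.48 CPM.

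The same differences were looked for in cells that the Cxcl14 limit had left out. Among cells labelled ΔMPC with P under 25 and Cxcl14 under 5, 453 held a UMI of the 3 genes and 1654 did not, and of 10303 genes 72 were higher (0.699%) and 196 lower (1.9%) in the first. Of the 104 genes higher in members 36 were higher here too, 34.6% of the one list and 50% of the other, and of the 228 lower genes 61 were lower here, 26.8% and 31.1%. Col4a3 stood at 15.1 and 3.98 CPM, a log2 ratio of 1.92 (1.45 to 2.40), and Tek at 119 and 47.3, a ratio of 1.33. Col4a4 and Col4a5 had ratios of 0.32 (-0.02 to 0.65) and 0.66 (0.41 to 0.90), against 2.08 and 1.68 in members. Of the 104 higher genes 91 were measured here, and 86 (94.5%) lay above 0, against 53.6% of all genes measured in both. Of the 228 lower genes 208 were measured, and 177 (85.1%) lay below 0, against 46.4%. Basement membrane genes had a median of 0.47, with 15 of 16 above 0, and secreted Wnt inhibitors had -0.98. Ratios were 1.51 for Ret, -2.03 for Clu, -2.01 for Gdf10 and -1.74 for Sfrp1. The signs were thus mostly shared outside the limit. The cells outside the limit come from the same library as the members, so they are no replicate of it.

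Gene levels also differed between members grouped by which of the 3 genes they held. Of the 109 members labelled ΔMPC with Wnt4, 50 held Wnt4 alone. Of the 71 with Rtl4 and no Wnt4, 36 also held Pcsk2. Holding a given gene and holding more than 1 of the 3 were thus not told apart. Compared with the 182 members labelled ΔMPC that held Pcsk2 alone, the 109 with Wnt4 had 27 genes higher (0.403% of 6692 measured) and 21 lower (0.314%). Tbata led (36.3 against 4.37 CPM, log2 ratio 3.05, 2.01 to 4.27), followed by Thbs4, a matrix thrombospondin (252 against 55.9, ratio 2.17), and the fatty acid carrier gene Fabp4 (49.0 against 12.6, ratio 1.95). Sfrp2 was the lowest, at 3.95 CPM (5 UMIs) against 43.2 (ratio -3.45), but 42.7% of the UMIs in the Pcsk2-alone members were in 1 cell, without which the ratio was -2.66. Fabp4 had 56.5% of its UMIs in 1 Wnt4 member and a ratio of 0.77 without that cell, and Tbata had 47.8% and 2.14. The 71 members with Rtl4 and no Wnt4, against the same 182 cells, had 14 genes higher (0.26% of 5379) and 19 lower (0.353%). Tnmd, the tendon protein tenomodulin, stood at 112 CPM (94 UMIs) against 4.37 (9 UMIs), a ratio of 4.68 (3.69 to 5.85), and Thbs4 and Comp had ratios of 2.64 and 2.66, the latter 1.95 without the Rtl4 member of most UMIs. Of the 27 and 14 higher genes 12 and 7 kept their call, and of the 21 and 19 lower genes 12 and 13, when the cell of most UMIs was left out of either group. Sfrp2 (3 UMIs, -3.60, -5.90 to -2.01, and -2.80 without the same cell), Il6 (-1.91) and Cxcl10 (-1.66) were lower. Both contrasts share the Pcsk2-alone cells, and the genes named were the extremes, chosen after their values were seen.

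Between the libraries, members labelled ΔMPC differed from the 43 labelled WT past 3-fold, the fold change of the study, in 47 higher (1.25%) and 21 lower (0.557%) genes of 3772. In comparator cells 213 (2.01%) and 144 (1.36%) of 10602 genes did so. The nuclear receptor gene Nr4a2 had the highest ratio in members, 61.0 CPM against 1.97 (1 UMI), a log2 ratio of 4.95 (2.46 to 10.26), and 1.98 in comparator cells. Emb was at least 17.4-fold higher in members labelled ΔMPC, where it had 428 UMIs, against no UMI in members labelled WT and a floor of 3 counts. Ifit1 (4.78, 2.29 to 10.09) and Iigp1 (3.87, 2.31 to 6.16), which interferon induces, Lgals3, galectin 3 (4.37, 2.50 to 7.42), S100b (3.63), Comp (3.38, 1.82 to 5.67), Ptgs2 (3.32), the noradrenaline transporter gene Slc6a2 (3.23) and Gm1673 (3.00) completed the 10 highest, each on 7 or fewer UMIs in members labelled WT. In comparator cells the ratio was 3.88 for Emb, and 1.07, 1.46, 3.39, 2.60, 4.89, 0.93, 2.54 and 1.05 for the others in that order.

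The 10 lowest rested on more counts and included genes of matrix and growth factor signalling. Tgfbi, a TGF-beta-induced matrix protein, stood at 392 CPM in members labelled WT and 41.8 in members labelled ΔMPC, a log2 ratio of -3.23 (-3.53 to -2.93), and at -2.95 in comparator cells. Mgp stood at 2860 and 561 CPM (-2.35, and -2.25 in comparator cells). Penk, the precursor of enkephalins, had a ratio of -2.67 in members and -1.69 in comparator cells, and Ctgf and Nov, matricellular proteins of the CCN family, had -2.53 and -2.44 in members and -1.08 and -0.89 in comparator cells. Of the 79 Ctgf UMIs in members labelled WT, 45.6% were in 1 cell, and without it the ratio was -1.69. Pdgfrl (-2.71), Wfdc1 (-2.42), Kctd12 (-2.15) and Nrk (-2.10) had ratios of -2.59, -2.15, -1.22 and -1.41 in comparator cells. Each of the 20 genes had the same sign in both kinds of cell, and whether the sizes differ was not tested.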

How the data were processed

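The authors made the 2 libraries with the 10x Chromium 3′ v3.1 kit, aligned and counted reads with Cell Ranger 3.1.0 (mm10), and filtered cells, gated doublets and removed cells with markers of other muscle-resident types in Seurat 3.2.1. The deposited tables hold their raw UMI counts for 31053 genes, with 1501 to 4998 genes and at most 5.00% mitochondrial UMIs per cell. Total counts were 51015705 (Bap1f/f) and 49540066 (Prx1-Cre;Bap1f/f). No doublet caller was run here.

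Counts were summed per group of cells and divided by the group's total (CPM). A log2 ratio has an exact conditional binomial interval, a sum an exact Poisson interval and a share an exact Clopper-Pearson interval, all at 95% and for counting error only. A count of 0 was set to a floor of 3 over the group. Calls used the limits given in the results. Python 3.11.15, scanpy 1.11.5 and scikit-learn 1.9.0 were used, with edgeR 4.0.16 for TMM factors only. Ratios were tested on simulated group sums drawn without differences between cells. That run does not cover counts held largely by 1 cell.

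Members, gene lists and rules were chosen with earlier results of these data known. Named genes were those past 2-fold in both libraries, the 10 most extreme each way in a comparison, fixed marker genes and the leading genes of each list, from which the text gives a part. Gate, depth, cell type, scaling, filter and fold alternatives were tried. Those leaving out acute-phase or tendon-type cells, or the cell of most UMIs of a gene, were chosen after seeing the data. The UMI-number groups, the groups by defining gene and the cells outside the Cxcl14 limit were also set after seeing the data. A few genes within these rules are not reported here.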

Additional observations from a re-analysis of the deposited data

How the results depend on the processing

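The 43 members labelled WT, 37 of them on 1 UMI, limit what that library can show. Requiring 2 UMIs left 6 of them and membership by Rtl4 left 3, too few (under 10) for gene ratios. No paired analysis was possible because only a single library was made from either genotype and nothing was tested. Of 1018 recomputed ratios of named genes, 902 stayed within their interval, 112 left it and 4 changed sign: Igfbp2 labelled ΔMPC to 0.37 without cells above 20000 UMIs, and, labelled WT, Il6 to 0.37 with Cxcl14 at least 3, and Pdlim4 to -0.012 and Vtn to -0.54 with membership by Wnt4. In the library labelled ΔMPC, Col4a3 stayed between 2.63 and 3.35, Col4a4 between 1.86 and 2.73 and Col4a5 between 1.53 and 2.31 in 16 alternatives. In the library labelled WT, the Cxcl14 limit ended calls given beside the ratios above.

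Member shares of Cxcl14-type cells labelled WT and ΔMPC were 3.94% and 22.7% when thinned to 5000 UMIs and 3.34% and 16.7% at 3000. With 2 UMIs required, members were 1.13% and 22.9% of members and comparator cells together. The 37 and 167 Cxcl14-type cells with exactly 1 UMI were left out of that base. Shares of all cells were 0.609% and 6.46% with Cxcl14 at least 10, 1.46% and 9.53% with at least 3, and 0.146% and 4.45% with 2 UMIs. Thinned to 5000 UMIs, Pcsk2 was in 2.50% and 15.6% and Wnt4 in 1.07% and 5.73% of Cxcl14-type cells, and Rtl4 in 5.63% of those labelled ΔMPC. Neighbour shares around members were 8.23% to 11.4% labelled WT and 52.2% to 55.1% labelled ΔMPC over the settings tried.

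Counts of called genes depended on the limits. In the library labelled ΔMPC the 332 became 167 with 50 UMIs expected, 1715 with no filter, 1044 at 1.5-fold, 91 at 3-fold, 194 by Wnt4 and 178 by Rtl4. In the library labelled WT the 36 became 7, 2989, 196, 10 and, by Wnt4, 14, and 23 with Cxcl14 at least 10. Its genes turned over with the gate even where the count did not: 11 of the 36 were among the 34 called with Cxcl14 at least 3, 14 among the 23, and 15 among the 39 by Pcsk2. The 14 shared became 4, 361, 44, 2 and, by Wnt4, 4, with 8 at Cxcl14 at least 10 and 9 in cells of at least 10000 UMIs, and 20 by Pcsk2. Between libraries the 68 became 17 with 50 UMIs expected, 1810 with no filter, 653 at 1.5-fold, 212 at 2-fold, 44 with Cxcl14 at least 10, 29 by Wnt4 and 37 by Pcsk2. Leaving out adipocyte-type, cycling, acute-phase, tendon-type or deep cells, and TMM or per-cell scaling, kept each of these 4 counts within 1.5 times. Without the cell of most UMIs of each gene, 274 of 332, 30 of 36 and 61 of 68 calls remained.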
